A study of Mus musculus with 18 samples.

Results

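The comparison is between plasmacytoid dendritic cells (pDCs) after 16 h and after 6 h of imiquimod, taken directly and without subtraction of the vehicle. It uses the 6 libraries that the sample labels place in those groups, 3 at each time, of 18 in the series, and all genes of the count table. The starting material was marrow of wild-type C57BL/6 mice, cultured with Flt3 ligand at 80 ng/mL for 7 days, and the pDCs were enriched on beads through B220, a surface protein of pDCs and B cells, to a routine purity of 80%. They were then held in 96-well plates with imiquimod at 2.5 µg/mL. The vehicle, which the labels call LAL and the design text explains as Limulus amebocyte lysate, was sampled at 0, 6 and 16 h in 3 libraries each from the same kind of culture. RNA was depleted of ribosomal RNA and sequenced as directional paired reads of 75 nt. Neither the number of mice nor whether marrow was pooled is given in the sources used here, so p-values measure only the library-to-library spread, which may be technical. The study is about the killing of tumor cells by imiquimod-activated pDCs, and the comparison asks which transcripts of the stimulated cells changed between the early and the late time.

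Imiquimod is a small agonist of TLR7, an endosomal receptor for single-stranded RNA. In pDCs TLR7 signals through MyD88 to IRF7 and NF-kappaB, and the cells then secrete type I interferon and inflammatory cytokines, which act back on them through their own receptors. The same signal turns pDCs from secreting cells into cells with dendrites, co-stimulatory molecules and the lymph node homing receptor CCR7. Many of these transcripts are short-lived, and inhibitors made by the same response limit them.

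The 6 libraries held between 12193215 and 13447018 counts, against 10609741 to 13447018 over all 18. Genes for rRNA and rRNA-like repeats took 11.8% to 13.2% of the counts and mitochondrial mRNAs 0.37% to 0.419%, with overlap between the times. The first principal component of the 6 libraries held 88.3% of the variance and separated the times, and the second held 3.39%. No 2 libraries had identical columns, and chi-square per degree of freedom between libraries of 1 time ran from 1.32 to 2.57. All 34 pDC markers were above the count filter, and their summed level in CPM (counts scaled to a common library size) was 10700 to 11200 at 6 h and 7290 to 7410 CPM at 16 h. Summed monocyte and macrophage markers were 407 to 417 CPM and then 202 to 230 CPM, cDC2 markers 1090 to 1140 and then 711 to 723, cDC1 markers 1800 to 1850 and then 2170 to 2260, B cell markers 2510 to 2690 and then 2360 to 2440. T and NK cell markers summed to 68.7 to 70.1 CPM and then 117 to 122, neutrophil, basophil and mast cell markers to 3.1 to 5.6 and then 7.24 to 9.06, and erythroid and platelet markers to 11.3 to 13.4 and then 11.7 to 12.7. Cma1, Mcpt4, Ngp, Retnlg, Epor, Gp1bb, Hba-a2 and Slc4a1, which define mast cells, neutrophils and erythroid or platelet cells, had 0 counts in all 6 libraries. In such bulk samples fewer cells of a type and less RNA per cell cannot be told apart.

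Of 54532 genes, 14876 passed the count filter and 63.7% of these (9471) were called at an edgeR adjusted p under 0.05 between 16 h and 6 h of imiquimod. At 16 h 4739 genes were higher (31.9%) and 4732 lower (31.8%). Counts within the gene lists below are to be read beside these shares. A change of at least 2-fold was called in 16.2%, with 1228 genes higher (8.25%) and 1178 lower (7.92%). The 3 libraries of one time did not overlap the 3 of the other in 67.5% of tested genes, so a lack of overlap is common here. The median log2 fold change over all tested genes was 0.01 after TMM scaling, which assumes that most genes do not change. The TMM factors were 0.817 to 0.837 at 6 h and 1.01 to 1.02 at 16 h, and scaling by library totals alone moved the median gene by 0.3 on the log2 scale and the share of higher genes among the calls from 50% to 74.6%. Changes are therefore relative to the median gene, and a group whose direction depends on this choice is marked where it is described.

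The same interval with vehicle alone brought fewer calls. Between 6 h and 16 h of vehicle 30% of tested genes were called, 2176 higher (14.6%) and 2294 lower (15.4%), and 4.26% changed at least 2-fold, 296 upward (1.99%) and 337 downward (2.27%). The test of the difference between the changes with imiquimod and with vehicle called 56.9%, 4246 toward imiquimod and 4222 away from it, and 18.5% at a difference of at least 2-fold (9.42% toward and 9.06% away). The imiquimod and vehicle changes share no library. A rise described below is against 6 h of imiquimod and need not lift a gene above the vehicle. Among named genes that rose, Ccr9, Lair1, Kit, Vsir, March1, Ppt1, Ern1, Cd79b, Cd300lf and Cd300c2 were below the vehicle mean at 16 h. So were Gbp8, Ccl25, Hpgds, Cd68 and Cyld, and this list is not complete. Others, such as Cd36, were above the vehicle mean.

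**Figure D1:**
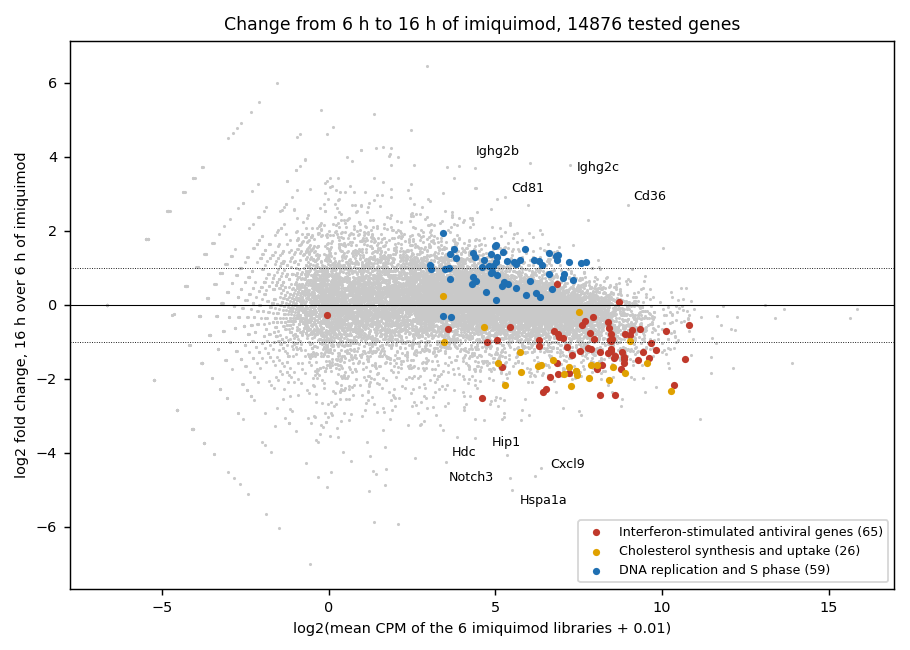
Each point is 1 of 14876 tested genes, with the log2 of its mean CPM over the 6 imiquimod libraries (plus 0.01) on the horizontal axis and its log2 fold change, 16 h over 6 h, on the vertical axis. Dotted lines mark 2-fold. Interferon-stimulated antiviral genes and cholesterol genes lie mostly below 0 and genes of DNA replication mostly above it.

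The largest falls included the inducible Hsp70 genes, the chemokine genes Cxcl9 and Ccl9 and the Notch receptor gene Notch3. Under the naming rule (called, a mean of at least 10 CPM, no overlap between times) the 12 largest ran from a log2 fold change of -5.01 to -3.12. Notch3, a receptor of the Notch family (ENSMUSG00000038146.7), stood at 81.2, 83.1 and 83.8 CPM at 6 h and 3.14, 3.15 and 3.37 CPM at 16 h, a log2 fold change of -4.68 (SE 0.101, edgeR adjusted p = 8.9e-55). The 6 h libraries were all above 80 and the 16 h libraries all below 4, while the vehicle held 1.73 ± 0.555 CPM at 6 h and 1.72 ± 0.204 CPM at 16 h (SD, n = 3), so the 16 h level with imiquimod was still above the vehicle mean. Cxcl9, the interferon-gamma-induced ligand of CXCR3 (chr5:92321347-92328079, minus strand, GRCm38), fell from 146, 159 and 165 to 6.21, 7.81 and 8.01 CPM, a log2 fold change of -4.42 (SE 0.0752, edgeR adjusted p = 8.81e-62). Hdc, which makes histamine from histidine, had 22.3, 20.2 and 22.8 CPM at 6 h and 1.24, 1.28 and 0.882 CPM at 16 h and a log2 fold change of -4.24 (SE 0.169, edgeR adjusted p = 9e-37). Hip1, an endocytic clathrin adaptor, had 76.4, 78.2 and 73.4 CPM at 6 h and 4.46, 3.08 and 6.17 CPM at 16 h and a log2 fold change of -4.06 (SE 0.0926, edgeR adjusted p = 2.04e-51).

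Dntt, the terminal transferase of early lymphoid cells that pDCs share, fell from 37.2, 41.7 and 37 to 2.85, 3.08 and 3.61 CPM (-3.60 (SE 0.108, edgeR adjusted p = 4.63e-45)), whereas with vehicle it rose over the same hours by 0.18 on the log2 scale (adjusted p = 0.0325). Naaa, a lysosomal amidase and marker of cDC1, fell by 3.4 on the log2 scale, and with vehicle by 0.61. The semaphorin Sema4f, the orphan receptor Gpr141, the receptor phosphatase Ptpro and the chemokine Ccl9 fell by 3.58, 3.24, 3.13 and 3.12. The inducible Hsp70 genes Hspa1a (chr17:34969190-34972156) and Hspa1b (chr17:34956436-34959238) had log2 fold changes of -5.01 (SE 0.116) and -4.64 (SE 0.0796). They are near-identical copies, with 54.2% and 55.8% of their 75 nt windows found in another gene, so reads could be split between them. In the vehicle they were at 3.01 ± 1.09 CPM at 6 h and 2.48 ± 0.609 CPM at 16 h (SD, n = 3) and 5.03 ± 1.02 CPM at 6 h and 4.96 ± 0.58 CPM at 16 h (SD, n = 3), and each fell at 16 h with imiquimod to within 2 CPM of that level. For all 12 genes the change with imiquimod differed from that with vehicle by the edgeR test of the difference, which called 56.9% of tested genes.

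The largest rises included the immunoglobulin constant regions Ighg2b, Ighg2c and Igha, the scavenger receptor gene Cd36 and the tetraspanin gene Cd81, and ran from 2.68 to 3.84 on the log2 scale. Ighg2b (chr12:113302965-113307933), a constant region of IgG, had 8.14, 9.29 and 8.25 CPM at 6 h and 131, 124 and 113 CPM at 16 h, a log2 fold change of 3.84 (SE 0.0957, edgeR adjusted p = 1.91e-31). Ighg2c (chr12:113285325-113288932), the IgG2 form of C57BL/6 mice, went from 19.6, 23.2 and 18.4 CPM to 291, 273 and 274 CPM, a log2 fold change of 3.77 (SE 0.0627, edgeR adjusted p = 2.39e-56). The times lay far apart in both genes, and the vehicle held 0.131 ± 0.0888 CPM at 6 h and 0.296 ± 0.285 CPM at 16 h (SD, n = 3) for Ighg2c. Ighg2b had 0.206 ± 0.194 CPM at 6 h and 0.902 ± 0.574 CPM at 16 h (SD, n = 3) with vehicle, where it also rose (2.03, adjusted p = 0.00878), and the difference between imiquimod and vehicle was not called for it (adjusted p = 0.0559). Igha, the IgA constant region, changed by 3.71 (SE 0.542), with 6 h libraries that differed among themselves (2.35, 1.55 and 0.982 CPM).

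Cd36, a scavenger receptor for lipids and apoptotic cells (chr5:17781690-17888801), stood at 135, 146 and 127 CPM at 6 h and 875, 914 and 828 CPM at 16 h, a log2 fold change of 2.68 (SE 0.041, edgeR adjusted p = 7.94e-54). Cd81, a tetraspanin of the B cell co-receptor, had 10.9, 9.49 and 7.46 CPM at 6 h and 70.8, 64.7 and 72.4 CPM at 16 h and a log2 fold change of 2.90 (SE 0.0857, edgeR adjusted p = 1.91e-45), against 0.04 with vehicle. The activating receptor gene Cd300e changed by 3.14, Aebp1 by 3.43 and the transporter gene Slc22a23 by 2.85. Slc22a23 went from a mean of 8.01 to 58 CPM, and with vehicle from 30.7 to 66.7 CPM (1.12). It was thus below the vehicle mean at both times. For Cd300e, with vehicle means of 0.0533 and 0.118 CPM, the edgeR test of the difference made no call (adjusted p = 0.232). The rise of the bicarbonate transporter gene Slc4a8 (3.75 (SE 0.141)) was matched by one of 3.76 with vehicle, and that of the opioid receptor gene Oprd1 (3.68 (SE 0.134)) by one of 3.54. For these 2 genes the difference between imiquimod and vehicle was not called (adjusted p = 0.973 and 0.841). Ramp3, which chaperones the calcitonin receptor family, changed by 2.70 with imiquimod and by 4.03 with vehicle, and Trim43b, 33.3% of whose 75 nt windows are shared with other genes, by 3.16 and 2.81. In all, the difference was called for 7 of the 12 rises. Among these 7 is Ramp3, whose rise was the larger with vehicle (difference -1.32, edgeR adjusted p = 4.05e-05). For Trim43b the difference was not called (edgeR adjusted p = 0.831).

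**Figure D2:**
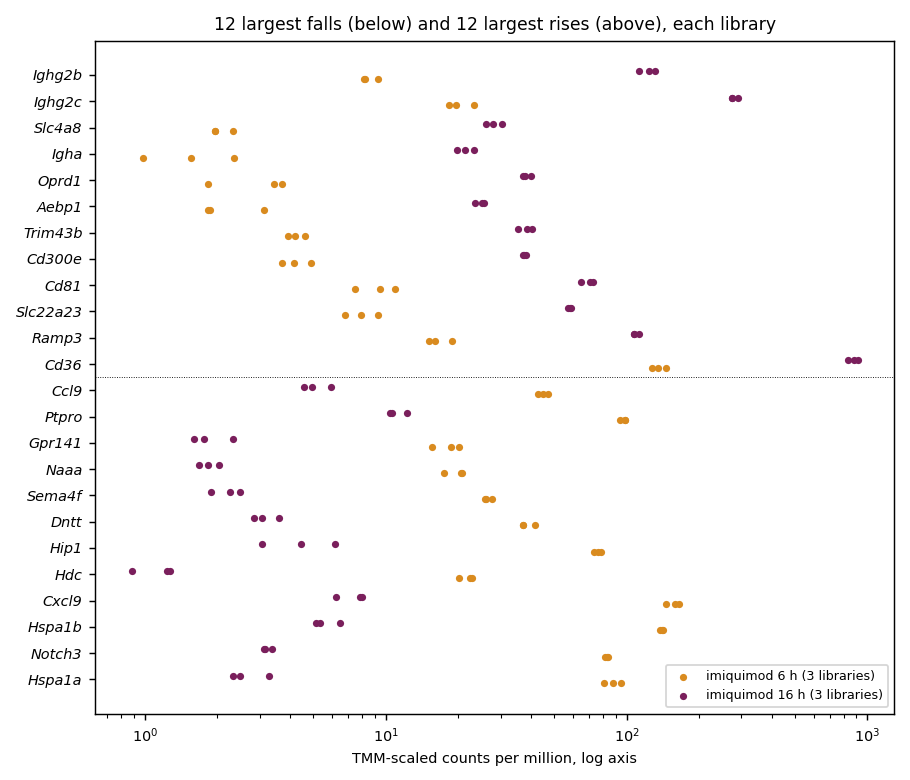
Each row is a gene and each point 1 library, in TMM-scaled CPM on a log axis, with 3 libraries at 6 h and 3 at 16 h of imiquimod. The 12 genes below the dotted line fell and the 12 above it rose, and in none do the times overlap, which the naming rule required.

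Interferon-stimulated antiviral genes, which block viral entry, translation and genome copying, fell as a group between 6 h and 16 h. Of 65 tested, 62 were lower at 16 h and 1 higher, where 31.8% and 31.9% of all tested genes were, and 37 fell at least 2-fold, where 7.92% did. The list median was -1.17 against 0.01 for all genes, and -0.87 under library totals. Rsad2, whose product viperin makes a chain-ending nucleotide, had 636, 652 and 663 CPM at 6 h and 119, 108 and 133 CPM at 16 h, a log2 fold change of -2.44 (SE 0.0416, edgeR adjusted p = 7.91e-52). Isg15, a ubiquitin-like modifier, had 488, 505 and 506 CPM at 6 h and 212, 191 and 224 CPM at 16 h (-1.26 (SE 0.0391, edgeR adjusted p = 3.37e-40)). Irf7, the master regulator of interferon-alpha in pDCs, had 1220, 1290 and 1300 CPM at 6 h and 546, 510 and 577 CPM at 16 h (-1.23 (SE 0.071, edgeR adjusted p = 1.88e-09)). The times did not overlap in any of the 3, and every 16 h value was far above the vehicle, which held 1.48 ± 0.215 CPM at 6 h and 1.13 ± 0.483 CPM at 16 h (SD, n = 3) for Isg15 and 39.1 ± 2.05 CPM at 6 h and 53 ± 10.3 CPM at 16 h (SD, n = 3) for Irf7. The largest fall that the rule names was in Slfn4, at -2.51, followed by the DNA sensor gene Ifi204 (-2.45). Epsti1 was the 1 member that rose, from 96.4, 93.1 and 90.4 to 136, 135 and 143 CPM (0.56 (SE 0.0448)), and with vehicle it rose by 1.03.

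Promoters of Isg15, Rsad2 and Ifit3 from this list, of the chemokine gene Cxcl10 and of the GTPase gene Gbp2 are shown because interferon induces these genes and they fell together. The interferon-stimulated response element, a site of interferon regulatory factors, was searched on both strands as GAAA, any 2 bases and GAAA in the 250 bases before each start in RefSeq promoters of GRCm38.p6. It was in 24 of 65 windows of the list (36.9%), which belong to 51 genes, and in 2.98% of all 32851 windows or 2.9% of those of tested genes. Capitals mark the matches, which overlap in Isg15, and the letters run 5′ to 3′ on the gene's strand.
Isg15 (chr4:156200855-156200916, minus strand): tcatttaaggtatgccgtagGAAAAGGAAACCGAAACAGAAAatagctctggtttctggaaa
Rsad2 (chr12:26456543-26456592, minus strand): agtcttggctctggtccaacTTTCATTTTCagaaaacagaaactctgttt
Cxcl10 (chr5:92349073-92349122, minus strand): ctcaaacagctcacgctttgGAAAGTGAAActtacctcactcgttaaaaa
Gbp2 (chr3:142620584-142620633, plus strand): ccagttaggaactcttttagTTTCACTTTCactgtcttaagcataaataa
Ifit3 (chr19:34583353-34583436, plus strand): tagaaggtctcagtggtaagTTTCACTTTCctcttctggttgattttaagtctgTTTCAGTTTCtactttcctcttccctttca
No match was in the windows of Irf7, Ifi47 and Cxcl9. A match is a description of these letters and no sign of binding.

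Ifit3, which binds viral RNA together with other IFIT proteins, had 222, 241 and 237 CPM at 6 h and 67.3, 58.7 and 67.9 CPM at 16 h and a log2 fold change of -1.85 (SE 0.0509), and was chosen after its values were seen. The guanylate-binding proteins and immunity-related GTPases, interferon-induced GTPases that attack the vacuoles of intracellular pathogens, also fell: 16 of 17 tested were lower and 1 higher, with a median of -0.81, and 4 fell at least 2-fold. Their windows held the same element in 9 of 11 cases (81.8%), that of Ifi47 being one without it. Gbp2 had 703, 710 and 731 CPM at 6 h and 264, 272 and 281 CPM at 16 h, a log2 fold change of -1.39 (SE 0.0355, edgeR adjusted p = 3.25e-49), and Ifi47 had 429, 428 and 425 CPM at 6 h and 148, 148 and 149 CPM at 16 h, a log2 fold change of -1.53 (SE 0.0358). With vehicle Gbp2 went the other way, from 3.08 to 24.8 CPM on average (3, adjusted p = 1.37e-36). Gbp8 was the 1 member that rose, by 0.26 (SE 0.0795), and with vehicle it rose by 0.91.

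The interferon genes themselves were near the limit of detection at both times. Of 21 interferon genes 1 passed the filter, Ifng, the type II interferon of NK and T cells. It had 16, 12 and 15 counts at 6 h and 60, 73 and 62 counts at 16 h, a depth-scaled ratio of 3.52 (95% interval 2.52 to 5.02, counting error only) and a log2 fold change of 1.81 (SE 0.249, edgeR adjusted p = 1.21e-09), with 1 count over 3 vehicle libraries at 6 h and 0 at 16 h. Of its windows 16.2% are shared with other genes. Ifnb1, the interferon-beta gene, had 7, 3 and 3 counts and then 0, 1 and 3, a ratio of 0.239 (0.0567 to 0.773), and its edgeR adjusted p without the expression filter was 0.0721. The 14 Ifna genes together had 23 counts over the 3 libraries at 6 h and 6 at 16 h. Times between 0 and 6 h of imiquimod were not sampled.

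Most inflammatory cytokine genes fell and a few rose. Of 18 tested, 11 were lower and 5 higher, with a median of -0.57 against 0.01 for all genes. Tnf, the founding member of its family, had 269, 304 and 309 CPM at 6 h and 109, 99.3 and 106 CPM at 16 h, a log2 fold change of -1.49 (SE 0.0462, edgeR adjusted p = 7.08e-41). Il12b, the p40 chain of IL-12 and IL-23, had 891, 906 and 902 CPM at 6 h and 315, 319 and 305 CPM at 16 h (-1.52 (SE 0.0339, edgeR adjusted p = 8.56e-54)), while its vehicle level rose from 2.33 to 13.6 CPM. Il6 moved the opposite way, with 156, 146 and 159 CPM at 6 h and 258, 251 and 258 CPM at 16 h, a log2 fold change of 0.74 (SE 0.0423, edgeR adjusted p = 4.7e-27). Its vehicle means stayed below 1 CPM but rose from 0.133 to 0.772 CPM (2.46, edgeR adjusted p = 0.00021). The difference was called (-1.72, edgeR adjusted p = 0.00745). The other 4 that rose were Il16 (1.10), the IL-1 receptor antagonist gene Il1rn (0.39) and the gp130 cytokine genes Osm (1.88) and Lif (1.43), the last 2 below 5 CPM and named after their values were seen. Il16 went from a mean of 7.72 to 16.6 CPM and stayed far below the vehicle, at 191 and 210 CPM. Il10, the anti-inflammatory cytokine, had 61, 58 and 73 counts and then 91, 89 and 78, a depth-scaled ratio of 1.04 (0.862 to 1.26), and its times overlapped in CPM. It was called higher under library totals (0.36, adjusted p = 0.0437). Csf1, the macrophage growth factor, had the largest fall that the rule names, at -1.70 (SE 0.112). Of 11 TNF superfamily ligands 7 fell and 1 rose, with a median of -0.7. Among them Tnfsf9, the ligand of 4-1BB, fell by 1.7 and Tnfsf10 (TRAIL), a death ligand of activated pDCs, from 25.2, 25.2 and 22.3 to 8.41, 7.74 and 9.38 CPM (-1.51 (SE 0.111, edgeR adjusted p = 4.56e-21)). The TRAIL transcript was at 0.951 and 1.98 CPM on average in the vehicle. The 1 that rose, Tnfsf11, had 0 counts at 6 h and fewer than 1 CPM at 16 h, and was not called without any 1 of the 6 h libraries or without 16 h replicate 2 or 3.

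Chemokine genes fell in 12 of 17 tested and rose in 3, with a median of -0.69. Beside Cxcl9 and Ccl9, Cxcl10, a second CXCR3 ligand, had 235, 249 and 249 CPM at 6 h and 61.2, 63.4 and 72.6 CPM at 16 h, a log2 fold change of -1.90 (SE 0.0502, edgeR adjusted p = 3.43e-47). The inflammatory chemokine genes Ccl3 and Ccl5 changed far less: Ccl3 changed by -0.33 (SE 0.0382), and Ccl5 had 228, 249 and 244 CPM at 6 h and 227, 218 and 224 CPM at 16 h (-0.11 (SE 0.0401, edgeR adjusted p = 0.0159)). Without 6 h replicate 2, 6 h replicate 3 or 16 h replicate 2 it was -0.08, -0.09 and -0.07 and not called. Nor was Ccl5 called without an expression filter (-0.08) or with rRNA genes left out (-0.09). The fall of Ccl5 is relative to the median gene, since under library totals its log2 fold change was 0.19, and that of Ccl3 was -0.03 and not called (adjusted p = 0.444). With vehicle both rose, Ccl5 by 2.60 and Ccl3 by 1.23. The 3 that rose were Ccl25 (0.42), Ccl1 (2.05) and Cxcl1 (1.02), the last 2 at under 4 CPM and named after their values were seen.

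The chemokine promoters and those of NF-kappaB feedback genes were searched for the NF-kappaB site on both strands in the form GGGA, any 4 bases and CC. It was in 6 of 14 chemokine windows (42.9%) and in 14 of 37 windows of the NF-kappaB list (37.8%), in 22.4% of windows of tested genes and in 17.6% of all windows. It is a loose pattern, found in 36% of cholesterol and 30.8% of mitosis windows too. Capitals mark the matches in 3 examples. The window of Nfkbia, with 2 matches, and a second window of Tnfaip3, with 1, are not shown.
Cxcl9 (chr5:92328180-92328229, minus strand): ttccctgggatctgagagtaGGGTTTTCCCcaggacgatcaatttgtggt
Cxcl10 (chr5:92348963-92349068, minus strand): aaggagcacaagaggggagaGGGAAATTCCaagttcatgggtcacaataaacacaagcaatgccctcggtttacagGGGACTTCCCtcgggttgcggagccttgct
Tnfaip3 (chr10:19015506-19015555, minus strand): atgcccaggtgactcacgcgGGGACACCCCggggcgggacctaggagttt

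NF-kappaB subunits, targets and feedback genes were lower in 29 of 34 tested and higher in 2, with a median of -0.72, and 8 fell at least 2-fold. Nfkb1, the p50 precursor, had 1200, 1220 and 1240 CPM at 6 h and 461, 455 and 472 CPM at 16 h, a log2 fold change of -1.40 (SE 0.0309, edgeR adjusted p = 4.83e-54). The inhibitors fell with it: Nfkbia (I-kappaB-alpha) had 710, 736 and 759 CPM at 6 h and 402, 397 and 402 CPM at 16 h (-0.88 (SE 0.0334)) and Tnfaip3 (A20), which removes ubiquitin from the signalling complex, had 683, 701 and 703 CPM at 6 h and 310, 300 and 299 CPM at 16 h (-1.20 (SE 0.0329)). Both stayed above the vehicle mean, 88.4 ± 2.16 CPM at 6 h and 86.7 ± 1.49 CPM at 16 h (SD, n = 3) for Tnfaip3. The 2 that rose were Cyld, another deubiquitinase (0.20), and Nfkbil1 (0.48). Tnfaip2, an NF-kappaB target, fell by 1.73, Icam1 by 1.31.

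Immediate-early and AP-1 genes, the first transcribed after a stimulus, were lower in 29 of 34 tested and higher in 2, with a median of -0.82 and 12 falls of at least 2-fold. Nr4a3, an orphan nuclear receptor, had 841, 853 and 889 CPM at 6 h and 215, 228 and 219 CPM at 16 h (-1.96 (SE 0.0343, edgeR adjusted p = 4.82e-61)), and Jun 439, 440 and 470 CPM at 6 h and 164, 159 and 163 CPM at 16 h (-1.48 (SE 0.0428)). Both were far below these levels in the vehicle, at 45.6 ± 2.23 CPM at 6 h and 42.8 ± 2.34 CPM at 16 h (SD, n = 3) for Nr4a3. The 2 that rose, Batf3 (1.52), a cDC1 transcription factor, and Nr4a2 (1.03), were at about 10 CPM or less and were named after their values were seen.

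Cytokine signalling and MAP kinase inhibitors were lower in 17 of 27 and higher in 2, with a median of -0.29 that was 0.01 under library totals. Dusp6 (0.67) and Dusp14 (2.03) rose, both under 10 CPM. Socs3 changed by -0.95 (SE 0.0404), Socs1 by -0.78 (SE 0.0725), Cish by -1.73 (SE 0.0831) and the phosphatase gene Dusp2 by -1.36 (SE 0.0392). The SOCS genes encode inhibitors of JAK-STAT signalling, and Socs3 had 290, 291 and 319 CPM at 6 h and 148, 156 and 162 CPM at 16 h, with all 3 late libraries at least 100 CPM below the early ones. Of the Toll-like receptor pathway 23 of 38 were lower and 6 higher, with a median of -0.21 that was 0.09 under library totals, where 12 were lower and 17 higher. Tlr7, the receptor of imiquimod, had 383, 426 and 415 CPM at 6 h and 292, 290 and 287 CPM at 16 h (-0.49 (SE 0.0517, edgeR adjusted p = 1.41e-08)), and Tlr9, the DNA receptor of pDCs, had 525, 566 and 574 CPM at 6 h and 325, 314 and 320 CPM at 16 h (-0.80 (SE 0.0344, edgeR adjusted p = 1.3e-34)). The adaptor Myd88 had 142, 147 and 142 CPM at 6 h and 55.7, 53.3 and 53 CPM at 16 h (-1.41 (SE 0.0469)), Irf5 fell by 1.2 and Irak2 by 1.28. Tlr12 rose from 56.2, 62.9 and 62.1 to 187, 173 and 176 CPM (1.56 (SE 0.053)), Irak1 by 0.49 and Tlr1 by 0.45. With vehicle Tlr7 rose by 0.59 and Tlr9 by 0.18.

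Maturation and co-stimulation genes divided. Of 31 tested, 21 fell and 8 rose, with a median of -0.77 against 0.31 for the same list with vehicle. Cd40, the receptor for T cell help, had 672, 671 and 687 CPM at 6 h and 272, 262 and 276 CPM at 16 h, a log2 fold change of -1.32 (SE 0.0336, edgeR adjusted p = 5.59e-50). Cd86, a ligand of CD28, had 293, 299 and 298 CPM at 6 h and 106, 117 and 119 CPM at 16 h (-1.38 (SE 0.0395, edgeR adjusted p = 1.7e-46)), and Icosl, the ligand of ICOS, changed by -2.02 (SE 0.0332). The IL-2 receptor alpha chain gene Il2ra fell by 1.61 and Il4i1, a secreted amino acid oxidase, by 1.71. Each remained above its vehicle level at 16 h, 15.1 ± 1.08 CPM at 6 h and 16.6 ± 1.2 CPM at 16 h (SD, n = 3) for Cd40. Ccr7 changed little, with 1330, 1360 and 1370 CPM at 6 h and 1160, 1120 and 1160 CPM at 16 h (-0.24 (SE 0.0317, edgeR adjusted p = 2.02e-10)), and the sign is that of the median-gene scale, since its log2 fold change was 0.05 under library totals. With vehicle Ccr7 rose from 48.7 to 146 CPM (1.58), a change that differed from that with imiquimod (adjusted p = 1.4e-43). Fscn1, the actin bundler of dendrites, rose in both, from 533, 535 and 542 to 1520, 1520 and 1600 CPM with imiquimod (1.53 (SE 0.035)) and by 2.69 with vehicle. Tnfrsf4 (OX40) and Cd63 changed by 1.79 and 2.08. Cd44, the hyaluronan receptor, had 4220, 4470 and 4500 CPM at 6 h and 1250, 1190 and 1250 CPM at 16 h, a log2 fold change of -1.84 (SE 0.0453).

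Checkpoint and regulatory genes were lower in 17 of 27 and higher in 5, with a median of -0.29 that was 0.01 under library totals. Cd274 (PD-L1) had 431, 405 and 415 CPM at 6 h and 383, 387 and 384 CPM at 16 h (-0.12 (SE 0.0336, edgeR adjusted p = 0.00175)), and under library totals 0.18. Havcr2 (TIM-3) fell by 1.68. The tryptophan-degrading Ido2 changed by 1.65, the arginase Arg2 by 1.97 and Vsir (VISTA) by 0.61, with Tnfrsf14 (0.31) and Ido1 (1.19, under 10 CPM) the other 2. With vehicle Ido2 and Arg2 rose by more, by 2.97 and 3.01. Their differences were called (-1.32 and -1.04, edgeR adjusted p = 0.00406 and 0.00381).

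Genes of MHC class I presentation were called in all 24 tested, 14 lower and 10 higher, with a median of -0.18 that was 0.12 under library totals, where 3 were lower and 15 higher. Non-classical class I genes made up the largest rises: H2-Q7 had 160, 170 and 153 CPM at 6 h and 361, 373 and 391 CPM at 16 h (1.22 (SE 0.0384)) and H2-Q6 75.6, 79.5 and 70.8 CPM at 6 h and 367, 356 and 378 CPM at 16 h (2.28 (SE 0.0431)), although 17% and 17.9% of their windows are shared with other genes. The peptide-loading gene Tapbp changed by -0.72 and the immunoproteasome subunit gene Psmb10 by -0.78. Of 16 class II genes 12 fell and 2 rose (median -0.35), and under library totals 7 fell and 6 rose (median -0.05). Ciita, the transcriptional master of class II, had 1710, 1770 and 1750 CPM at 6 h and 598, 564 and 589 CPM at 16 h, a log2 fold change of -1.58 (SE 0.0316, edgeR adjusted p = 8.52e-57), and the invariant chain Cd74 5680, 5830 and 5870 CPM at 6 h and 3650, 3460 and 3660 CPM at 16 h (-0.69 (SE 0.0403)). March1, the ubiquitin ligase that removes class II from the surface, changed by 0.44, and H2-DMb2 by 0.13 with overlapping times. The latter was not called without 6 h replicate 1 or 3 or 16 h replicate 1 or 3 (0.11, 0.13, 0.1 and 0.13), or with DESeq2 (adjusted p = 0.149).

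**Figure D3:**
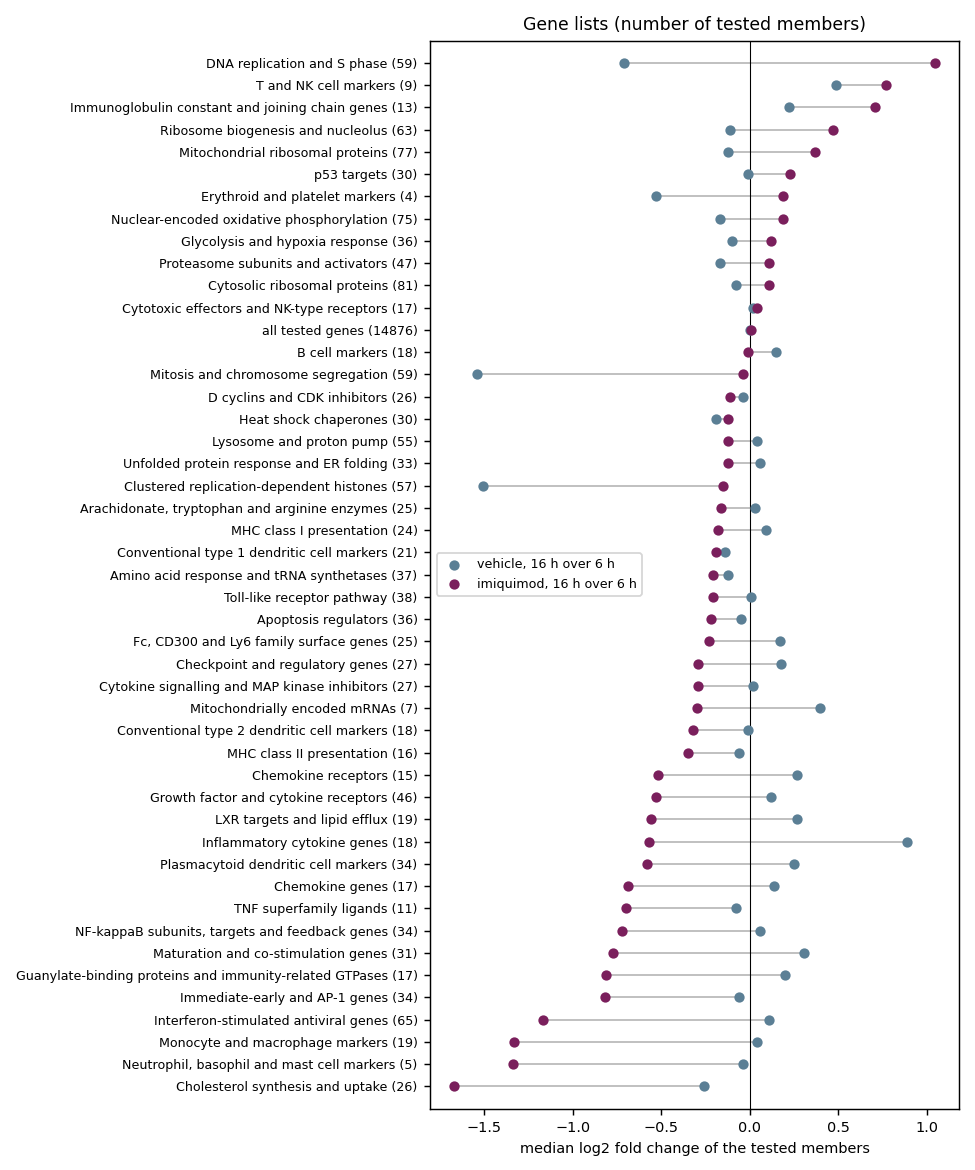
Each row is a gene list with the number of its tested members, and points give the median log2 fold change, 16 h over 6 h, with imiquimod and with vehicle. Of the lists drawn, cholesterol synthesis is lowest with imiquimod at -1.67 and DNA replication highest at 1.05. The interferon genes, with 1 tested, are not drawn.

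Immunoglobulin constant and joining chain genes rose in 11 of 13 tested and fell in 1, with a median of 0.71, and 6 rose at least 2-fold. Ighm, the constant region of IgM and transcribed in pDCs too, had 1050, 1130 and 1110 CPM at 6 h and 1400, 1390 and 1360 CPM at 16 h (0.33 (SE 0.0319)). Ighd, its neighbour for IgD, had 59.3, 55 and 54.1 CPM at 6 h and 39.5, 43.5 and 41.8 CPM at 16 h (-0.43 (SE 0.0633)) and was the 1 that fell, a call lost under library totals (-0.13, adjusted p = 0.0615), where 11 rose and 0 fell. Its log2 fold change with vehicle was 0.29. Jchain, the joining chain of secreted IgM and IgA, was not called (-0.30, adjusted p = 0.327) and stayed under 3 CPM. Of 18 B cell markers 8 rose and 7 fell (median -0.01, and 0.28 under library totals), with Cd22, an inhibitory sialic acid receptor, and Cd79b, a chain of the B cell receptor, up by 1.58 and 0.64, and Blnk and Blk, which carry its signal, down by 1.19 and 0.89. These counts are 44.4% and 38.9% of the markers, where 31.9% and 31.8% of all tested genes rose and fell. The summed B cell markers were 2510 to 2690 CPM at 6 h and 2360 to 2440 CPM at 16 h, and their part in the immunoglobulin rise was not tested.

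The pDC markers themselves fell in 24 of 34 and rose in 3, with a median of -0.58 (-0.28 under library totals), whereas with vehicle 21 rose, where 14.6% of tested genes did, and 1 fell (median 0.25). Siglech, the mouse pDC lectin, had 298, 299 and 299 CPM at 6 h and 168, 168 and 171 CPM at 16 h, a log2 fold change of -0.82 (SE 0.0342, edgeR adjusted p = 1.17e-35), against a rise with vehicle from 1150 to 1640 CPM on average (0.50). Tcf4 (E2-2), the transcription factor that holds the pDC fate, had 1670, 1630 and 1690 CPM at 6 h and 727, 739 and 729 CPM at 16 h (-1.19 (SE 0.0347, edgeR adjusted p = 2.41e-44)), against 0.26 with vehicle. For both the difference was called (adjusted p = 1.11e-40 and 8.22e-40). Spib, a second pDC factor, changed by -0.76 (SE 0.0359). Irf8 had 1760, 1830 and 1830 CPM at 6 h and 1620, 1600 and 1640 CPM at 16 h (-0.16 (SE 0.0315, edgeR adjusted p = 1.16e-05)), with a log2 fold change of 0.14 under library totals. The 3 that rose were Ccr9, the gut homing receptor of resting pDCs, with 101, 118 and 113 CPM at 6 h and 186, 193 and 181 CPM at 16 h (0.76 (SE 0.0426)), Lair1 (0.38) and Tcf3 (0.27). Ccr9 rose by 0.71 with vehicle, and the difference was not called (adjusted p = 0.479). Lair1 rose by 0.51 with vehicle.

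Marker lists of other cells moved as follows. Monocyte and macrophage markers were lower in 15 of 19 and higher in 3 (median -1.33), 12 of them at least 2-fold, among them the growth factor receptor gene Csf1r (-1.87), Ccr2 (-1.32) and fibronectin Fn1 (-2.73), and the 3 that rose were C1qb (1.79), Itgam and Cd68 (0.35). Of the cDC2 markers 8 of 18 fell and 3 rose (median -0.32, and under library totals 6, 5 and -0.03), with Irf4 at -1.10 and Cd7 at -1.74, and rises of Clec4a2 (0.68), Cd4 (0.60) and Itgam (0.64). Of the cDC1 markers 12 of 21 fell and 7 rose (median -0.19, and 0.11 under library totals), with Cadm1 at -1.66 and Ppt1 at 0.90. Cd36, at 135, 146 and 127 and then 875, 914 and 828 CPM, rose by more than the summed level of the cDC1 list that holds it. Of 9 T and NK cell markers 4 rose and 3 fell (median 0.77), with Tcf7 at 0.90, Cd5 at 1.23, Klrb1c at 3.04 and Il2rb at 1.13, and Cd28, Gata3 and Klre1 at -0.96, -1.69 and -2.20. With vehicle Tcf7 rose by more, by 2.06, and the difference was called (-1.16, edgeR adjusted p = 5.49e-15). Neutrophil, basophil and mast cell markers were tested in 5 genes (1 higher, 3 lower, median -1.34) and erythroid and platelet markers in 4 (1 higher, 1 lower, median 0.19), all at under 10 CPM. Csf3r (2) and Ermap (1.64) were the higher ones and Prtn3, Mpo, Prss34 (-1.34, -2.46 and -1.38) and Itga2b (-1.06) the lower ones. Mpo was not called without 6 h replicate 1 or 3 or 16 h replicate 1 or 2 (-2.31, -2.31, -1.91 and -1.93), nor Prss34 without 6 h replicate 3 or 16 h replicate 1 or 2 (-0.76, -1.22 and -0.86). Members of these lists outside the naming rule were named after their values were seen. Whether a shift of these cell types entered the other results was not tested.

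Genes of DNA replication and S phase rose together. Of 59 tested, 56 were higher at 16 h of imiquimod and 2 lower, 33 of them by at least 2-fold, where 8.25% of all tested genes were; the list median was 1.05. With vehicle 50 of the same 59 were lower and 0 higher (median -0.71), where 15.4% of all tested genes were lower, and for all 59 the difference between imiquimod and vehicle was called in the same direction, against 28.5% of tested genes. Prim1, the primase subunit that starts each new strand, had 16.2, 15.6 and 15.5 CPM at 6 h and 49.5, 49.6 and 46.4 CPM at 16 h, a log2 fold change of 1.62 (SE 0.0826, edgeR adjusted p = 1.4e-29), and fell by 0.98 with vehicle. Orc1, the largest subunit of the origin recognition complex, had 4.31, 4.07 and 5.01 CPM at 6 h and 17.5, 17.1 and 16.4 CPM at 16 h (1.93 (SE 0.129, edgeR adjusted p = 3.43e-23)). E2f1, a transcription factor of the S phase programme, had 16.7, 13.9 and 16.7 CPM at 6 h and 49, 48.1 and 45.2 CPM at 16 h (1.59 (SE 0.0765)), Pola1, the polymerase that extends the primer, 31.3, 28.7 and 31.4 CPM at 6 h and 89.7, 88.4 and 82.6 CPM at 16 h (1.51 (SE 0.0574)), and Mcm7, a subunit of the replicative helicase, 54.8, 53.4 and 54.6 CPM at 6 h and 147, 141 and 139 CPM at 16 h (1.39 (SE 0.0481)). In none of the 5 did the times overlap; Pola1 and Mcm7 were chosen after their values were seen, for the promoters shown next. The 2 that fell were E2f7, a repressor of the E2F family (-0.33), and its relative E2f2 (-0.30), and E2f8 was not called (0.12, adjusted p = 0.134). Under library totals neither fall was called (-0.03 for E2f7 and -0.01 for E2f2), 57 were higher and 0 lower, and E2f8 rose (0.41). E2f2 was not called without 6 h replicate 1 (-0.22) or 16 h replicate 1 (-0.29) or 2 (-0.27), nor E2f7 without 16 h replicate 2 (-0.25).

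The E2F site was searched as TTTNNCGC on both strands. It was in 13 of 56 windows of this list (23.2%), in 9.62% of those of mitosis genes, in 6.89% of those of all tested genes and in 4.28% of all windows. The matching stretches of 3 of the genes above are shown with the match in capitals, and the windows of Prim1 and E2f1 and a second window of Mcm7 held none.
Orc1 (chr4:108579407-108579453, plus strand): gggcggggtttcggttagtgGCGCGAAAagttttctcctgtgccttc
Pola1 (chrX:93632266-93632313, minus strand): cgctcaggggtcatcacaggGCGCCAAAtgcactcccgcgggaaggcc
Mcm7 (chr5:138172021-138172068, minus strand): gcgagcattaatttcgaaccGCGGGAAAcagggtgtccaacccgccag

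Mitosis and chromosome segregation genes were divided. Of 59 tested, 17 were higher and 25 lower with imiquimod, with a median of -0.04, and under library totals 33 were higher and 9 lower (median 0.26). The first 2 counts are 28.8% and 42.4% of the list, beside 31.9% and 31.8% of all tested genes. With vehicle 58 of 59 fell (median -1.54), where 15.4% of all tested genes did. The difference was called toward imiquimod in 57, against 28.5% of tested genes. Mki67, the proliferation antigen, had 346, 333 and 355 CPM at 6 h and 266, 281 and 278 CPM at 16 h (-0.33 (SE 0.0373, edgeR adjusted p = 4.36e-12)), which was -0.03 and not called under library totals, against a vehicle mean that went from 420 to 141 CPM (-1.57). The kinase Ttk changed by 0.74 and the condensin subunit gene Ncapd2 by 0.70, while Pttg1 (securin) changed by -1.98 (SE 0.076) and Kif23, a kinesin of the cleavage furrow, by -1.54 (SE 0.044). Clustered replication-dependent histone genes, which pack new DNA, were lower in 22 of 57 and higher in 4 (median -0.15, and 0.15 under library totals, where 6 were lower and 22 higher). With vehicle 55 were lower (median -1.51), where 15.4% of all tested genes were. Hist1h4d had 147, 145 and 148 CPM at 6 h and 84.3, 80.4 and 86.9 CPM at 16 h (-0.81 (SE 0.0524)) and fell by 1.26 with vehicle, and the 4 that rose were Hist1h2bm (0.59 (SE 0.142)), Hist1h2bl (0.58), Hist1h3a (0.42) and the pseudogene Hist3h2bb-ps (0.82), the last not called without 6 h replicate 3 (0.56) or 16 h replicate 2 (0.65). Reads could be split among such similar genes, with 73.3% of the windows of Hist1h2bl, 38.5% of those of Hist1h3a and 16.9% of those of Hist1h2bm found elsewhere. D cyclins and CDK inhibitors were higher in 10 of 26 and lower in 10 (median -0.11, and 0.19 under library totals). That is 38.5% each way, near the 31.9% and 31.8% of all tested genes. Cdk4, the kinase that passes the G1 checkpoint, had 74, 73.9 and 71.8 CPM at 6 h and 147, 133 and 141 CPM at 16 h (0.94 (SE 0.0486)), its inhibitor Cdkn1a (p21) 265, 283 and 285 CPM at 6 h and 109, 108 and 109 CPM at 16 h (-1.35 (SE 0.0417)), Ccnd1 (cyclin D1) 702, 760 and 731 CPM at 6 h and 308, 297 and 325 CPM at 16 h (-1.24 (SE 0.0378)), and the pocket protein gene Rbl2 changed by 1.20. Rbl2 went from a mean of 20.4 to 47 CPM and stayed below the vehicle, at 109 and 103 CPM.

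**Figure D4:**
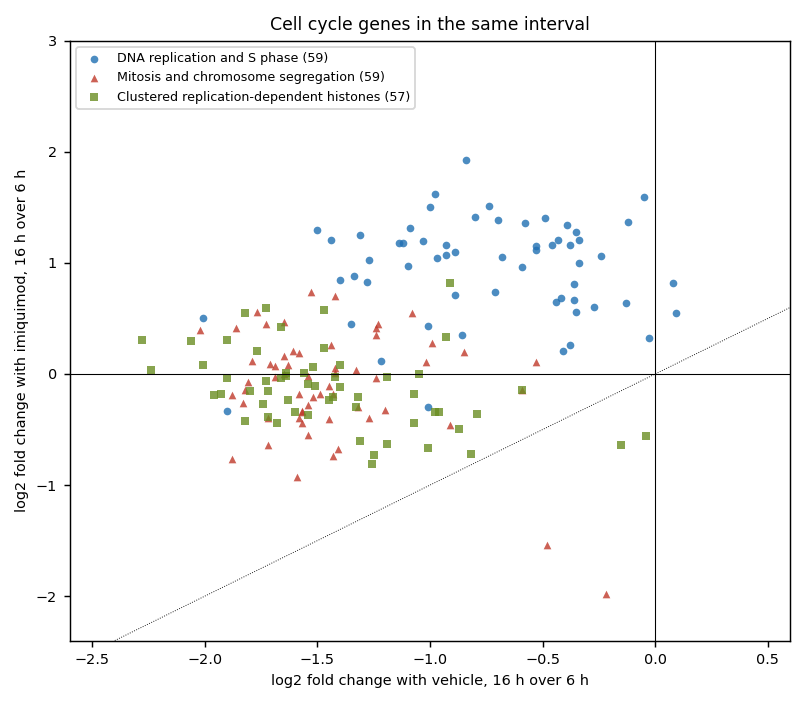
Each point is a tested gene, with its log2 fold change from 6 h to 16 h with vehicle on the horizontal axis and with imiquimod on the vertical axis, for 59 replication, 59 mitosis and 57 histone genes. The dotted line marks equal change. Replication genes lie mostly above 0 with imiquimod and below 0 with vehicle, and mitosis and histone genes lie around 0 with imiquimod.

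Cholesterol synthesis and uptake had the lowest list median of the comparison, -1.67 (-1.38 under library totals), against -0.26 with vehicle. Of 26 tested, 25 were lower and 0 higher, and 22 fell at least 2-fold; for 25 the change was lower than that with vehicle by the test of the difference, where 28.4% of tested genes were. Hmgcs1, the HMG-CoA synthase that opens the pathway (chr13:119690379-119708260), had 2050, 2110 and 2080 CPM at 6 h and 415, 406 and 410 CPM at 16 h, a log2 fold change of -2.34 (SE 0.0328, edgeR adjusted p = 1.16e-67). Hsd17b7, a late enzyme of the pathway, had 255, 263 and 238 CPM at 6 h and 49.7, 56 and 57.8 CPM at 16 h (-2.21 (SE 0.0503)). At 16 h Hmgcs1 was still above the vehicle, which held 317 ± 12.7 CPM at 6 h and 233 ± 8.58 CPM at 16 h (SD, n = 3). Insig2, which retains the SREBP activator in the ER, was the 1 member not called (0.24, adjusted p = 0.0518), and rose under library totals (0.54), without rRNA genes (0.27) and in a fit of the compared groups alone (0.25). The sterol regulatory element, bound by SREBP, was searched as TCACNCCAC on both strands and was in 1 of 25 windows of the list (4%) and in 1.05% of all windows. The window of Hmgcs1 held it, shown in capitals.
Hmgcs1 (chr13:119690194-119690242, plus strand): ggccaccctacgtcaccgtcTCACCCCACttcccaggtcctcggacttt

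LXR targets and lipid efflux genes were lower in 13 of 19 and higher in 3, with a median of -0.56. Plin2, which coats lipid droplets, had 60.3, 58.1 and 59.8 CPM at 6 h and 9.94, 10.4 and 11.1 CPM at 16 h (-2.51 (SE 0.076)), and Mylip, a ubiquitin ligase induced by LXR, changed by -1.62. Beside Cd36, the fatty acid binding protein gene Fabp5 and the phospholipid transfer gene Pltp changed by 0.52 and 0.34. Ch25h, an interferon-induced enzyme that makes 25-hydroxycholesterol, had 44, 47 and 47 counts at 6 h and 2, 0 and 3 at 16 h, a depth-scaled ratio of 0.0281 (95% interval 0.00899 to 0.0672, counting error only), and was named after its values were seen. Fatty acid synthase, Fasn, had 758, 767 and 753 CPM at 6 h and 455, 428 and 437 CPM at 16 h (-0.79 (SE 0.0337)).

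Most called genes of ribosome assembly and of mitochondrial ribosomes were higher at 16 h, by small amounts. Ribosome biogenesis and nucleolus genes were higher in 59 of 63 and lower in 0 (median 0.47, against -0.11 with vehicle). Nop10, a part of the enzyme that pseudouridylates rRNA, had 13.3, 13.9 and 16.2 CPM at 6 h and 39.9, 36.8 and 36.9 CPM at 16 h (1.39 (SE 0.0823, edgeR adjusted p = 3.73e-26)), and Dkc1, its catalytic partner, 52.5, 47.6 and 49.6 CPM at 6 h and 102, 95.5 and 95.7 CPM at 16 h (0.97 (SE 0.0557)). Wdr12, a large subunit assembly factor, changed by 1.05. Mitochondrial ribosomal proteins were higher in 57 of 77 and lower in 4 (median 0.37), led by Mrpl42 (1.17) and with Mrps6 lowest at -0.87 and Mrpl14, Mrpl39 and Mrps18a the other falls, at -0.59, -0.35 and -0.20. Mrps18a was not called without 6 h replicate 2 or 3 or 16 h replicate 2 or 3 (-0.17, -0.18, -0.18 and -0.17), and was at 0.1 under library totals, where Mrpl39 was not called (-0.05). Cytosolic ribosomal proteins were higher in 40 of 81 and lower in 9 (median 0.11), and 75 and 1 under library totals, where the fall of Rps27 named next was not called (-0.07). Rps27l, a p53-induced paralog of Rps27, changed by 1.33, while Rps27 changed by -0.37. Nuclear-encoded genes of oxidative phosphorylation were higher in 41 of 75 and lower in 4 (median 0.19, against -0.17 with vehicle), and 70 and 0 under library totals, with Ndufa12 at 0.75. Their 4 falls were Ndufb2 (-0.38) and Atp5a1 (-0.21), Sdhc (-0.21) and Uqcrfs1 (-0.23), of which the last 3 turn in sign under library totals and Ndufb2 is not called there (-0.08), and Sdhc was not called without 16 h replicate 1 (-0.14), nor Ndufb2 without 6 h replicate 1 or 2 or 16 h replicate 1 or 3 (-0.36, -0.34, -0.27 and -0.34). Of 7 mitochondrially encoded mRNAs 1 was lower, mt-Cytb (-0.50 (SE 0.142)), a call lost under library totals (-0.2), where 2 others were higher. The median was -0.3, and 0 under library totals.

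Glycolysis and hypoxia response genes were higher in 17 of 36 (47.2%) and lower in 13 (36.1%), with a median of 0.12. Of all tested genes 31.9% were higher and 31.8% lower. Ldha, which makes lactate, had 154, 150 and 147 CPM at 6 h and 245, 232 and 242 CPM at 16 h (0.68 (SE 0.0388, edgeR adjusted p = 5.64e-27)), and fell by 0.29 with vehicle. Tpi1, a core enzyme of glycolysis, and Pdk1, which closes pyruvate entry to the mitochondria, changed by 1.04 and 1.57. Pdk1 went from a mean of 5.53 to 16.5 CPM and stayed below the vehicle, at 36.3 and 37.9 CPM. Pfkp, the platelet form of phosphofructokinase, had 369, 352 and 383 CPM at 6 h and 105, 98.8 and 112 CPM at 16 h (-1.81 (SE 0.0404)), and Ndrg1 changed by -1.89. Amino acid response and tRNA synthetase genes were lower in 19 of 37 and higher in 9 (median -0.21, and 0.09 under library totals). Atf4, the factor at the centre of that response, had 241, 242 and 254 CPM at 6 h and 155, 155 and 161 CPM at 16 h (-0.65 (SE 0.0374, edgeR adjusted p = 9.08e-27)) and Atf5 changed by -1.33. Among the 9 that rose were serine and one-carbon enzymes, Shmt2 with 52.3, 55.6 and 51.7 CPM at 6 h and 120, 111 and 115 CPM at 16 h (1.12 (SE 0.0541)), Psat1 with a log2 fold change of 1.08 (SE 0.0646) and Phgdh with 1.5 (SE 0.0651), 35.8% of whose windows are shared.

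Heat shock chaperones were lower in 15 of 30 (50%) and higher in 9 (30%), where 31.8% and 31.9% of all tested genes were. The median was -0.12 (0.18 under library totals), and 9 fell at least 2-fold, of which Hspa1a and Hspa1b are given above. Hspa4l, a co-chaperone of Hsp70, had 103, 98.6 and 98.8 CPM at 6 h and 16.4, 17.9 and 17.2 CPM at 16 h (-2.55 (SE 0.0624)). The mitochondrial Hsp70 gene Hspa9 and the folding ring gene Cct2 changed by 0.41 and 0.44. The heat shock element, searched on both strands as GAA, TTC and GAA with any 2 bases between each, was in 4 of 33 windows of the list (12.1%) and in 0.466% of all windows; it was not in those of Hspa1a, Hspa1b and Hspa4l, so no stretch is shown. Genes of the unfolded protein response and ER folding were lower in 18 of 33 (54.5%) and higher in 10 (30.3%). Their median was -0.12 (0.18 under library totals). Hspa5 (BiP), the ER chaperone, had 1810, 1880 and 1850 CPM at 6 h and 1390, 1320 and 1380 CPM at 16 h (-0.44 (SE 0.0381, edgeR adjusted p = 2.07e-13)), and Edem1, which directs misfolded glycoproteins to degradation, 992, 1030 and 1040 CPM at 6 h and 457, 440 and 454 CPM at 16 h (-1.18 (SE 0.0329)). The sensor Ern1 (IRE1) changed by 0.43 and the signal peptidase subunit gene Sec11c by 0.61.

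Apoptosis regulators were lower in 19 of 36 (52.8%) and higher in 11 (30.6%), with a median of -0.22 (0.08 under library totals). Bcl2l1 (Bcl-xL), a survival protein, had 356, 363 and 369 CPM at 6 h and 131, 115 and 127 CPM at 16 h, a log2 fold change of -1.55 (SE 0.041, edgeR adjusted p = 1.22e-48), and the vehicle held 10.2 ± 0.265 CPM at 6 h and 9.85 ± 0.874 CPM at 16 h (SD, n = 3). Bcl2l11 (Bim), its pro-apoptotic antagonist, fell as well, with 336, 341 and 362 CPM at 6 h and 114, 126 and 120 CPM at 16 h (-1.53 (SE 0.0382)). Mcl1 had 668, 672 and 661 CPM at 6 h and 497, 506 and 517 CPM at 16 h (-0.40 (SE 0.0315)). Bcl2 itself rose, with 55.6, 55.9 and 54 CPM at 6 h and 86.2, 91.6 and 84 CPM at 16 h (0.66 (SE 0.052)), and fell by 0.51 with vehicle. Gsdme, a pore-forming gasdermin, had 0 counts in all 3 libraries at 6 h and 5, 10 and 3 at 16 h, at least 4.66-fold above a floor of 3 counts per group, and was named after its values were seen. Summed over the vehicle libraries of each time, Gsdme had 63 counts at 0 h, 41 at 6 h and 24 at 16 h. The 18 counts at 16 h of imiquimod were thus not above the vehicle. The p53 targets were higher in 15 of 30 (50%) and lower in 11 (36.7%), beside 31.9% and 31.8% of all tested genes (median 0.23). Under library totals 17 were higher and 5 lower (median 0.52). Zmat3, an RNA-binding p53 target, had 7.94, 7.16 and 6.68 CPM at 6 h and 33.2, 32 and 27.2 CPM at 16 h (2.09 (SE 0.0996)), Polk, a translesion polymerase, and Pidd1, a death domain scaffold, changed by 1.44 and 1.20, and Pmaip1 (Noxa) changed by -1.22, beside Cdkn1a. The vehicle means of Zmat3, 24.5 CPM at 6 h and 26 CPM at 16 h, lay between its levels at the 2 times of imiquimod.

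Cytotoxic effectors and NK-type receptors were higher in 6 of 17 and lower in 7, with a median of 0.04, near the 31.9% and 31.8% of all tested genes, and under library totals 7 were higher and 6 lower. Gzmb (granzyme B), which pDCs can make, was under the count filter, with 12, 8 and 14 counts at 6 h and 3, 4 and 2 at 16 h, a ratio of 0.206 (95% interval 0.0867 to 0.438, counting error only; edgeR adjusted p without the filter 0.000447). No granzyme B count was seen in the vehicle at 0, 6 or 16 h. Prf1 (perforin) had 1 count over the 3 libraries at 6 h and 7 at 16 h, and Fasl had 4 and 3, so neither could be compared at this depth. The NK receptor genes Klrd1 (CD94) and Klrk1 (NKG2D) had 27.4, 28.6 and 31.1 CPM at 6 h and 3.8, 5.48 and 3.45 CPM at 16 h (-2.77 (SE 0.104)) and 131, 133 and 136 CPM at 6 h and 37.2, 33.3 and 41.3 CPM at 16 h (-1.84 (SE 0.0543)). Unc13d, which primes lytic granules for release, and Rab27a, which docks them, changed by 1.18 (SE 0.0585) and 0.85 (SE 0.0561). Unc13d went from a mean of 27.8 to 63.1 CPM and stayed below the vehicle, at 91.5 CPM at 6 h and 90.1 CPM at 16 h. Rab27a went from 37.3 to 67.3 CPM, where the vehicle held 62.9 and 65.2 CPM.

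Among further families, chemokine receptors were lower in 9 of 15 and higher in 3 (median -0.52), with Ccr2 and Cx3cr1 at -1.32 and -1.59 and, beside Ccr9, rises of Ccr4 (2.63) and Cxcr3 (0.77). Cxcr3, near 1 CPM, was not called without 6 h replicate 1, 2 or 3 (0.87, 0.86 and 0.61) or 16 h replicate 1 or 2 (0.8 and 0.61), nor with DESeq2 size factors (0.75), without a filter (0.8), with DESeq2 (0.76) or with a replicate block (0.77). Growth factor and cytokine receptors were lower in 32 of 46 and higher in 7 (median -0.53). Of the latter Il13ra1 fell from 30.3, 32.6 and 32 to 4.9, 5.86 and 6.57 CPM (-2.46 (SE 0.0992)), and Kit and Il21r changed by 0.56 and 0.48. Fc, CD300 and Ly6 family surface genes were lower in 13 of 25 and higher in 7 (median -0.23, and 0.07 under library totals), with Cd300lf and Cd300c2 up by 1.13 and 1.13 and the IgG receptor gene Fcgr1 down by 1.8. The inhibitory receptor gene Lilrb4a had a log2 fold change of -2, with 39.8% of its windows shared with other genes. Arachidonate, tryptophan and arginine enzymes were higher in 10 of 25 and lower in 11 (median -0.16, and 0.14 under library totals), with the prostaglandin D synthase gene Hpgds up by 1.20 and Kynu, which breaks down kynurenine, and Gch1, which makes tetrahydrobiopterin, down by 1.62 and 1.54. These counts are 40% and 44% of the enzymes, beside 31.9% and 31.8% of all tested genes. Lysosome and proton pump genes were lower in 27 of 55 (49.1%) and higher in 19 (34.5%), beside 31.8% and 31.9% of all tested genes. Their median was -0.12 (0.18 under library totals). Lamp2 had 830, 840 and 862 CPM at 6 h and 334, 333 and 331 CPM at 16 h (-1.34 (SE 0.033)), whereas its sister gene Lamp1 had 306, 343 and 326 CPM at 6 h and 454, 448 and 445 CPM at 16 h (0.47 (SE 0.0344)). Proteasome subunits and activators were higher in 26 of 47 and lower in 10 (median 0.11), with the assembly chaperone gene Psmg2 at 1.09.

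**Figure D5:**
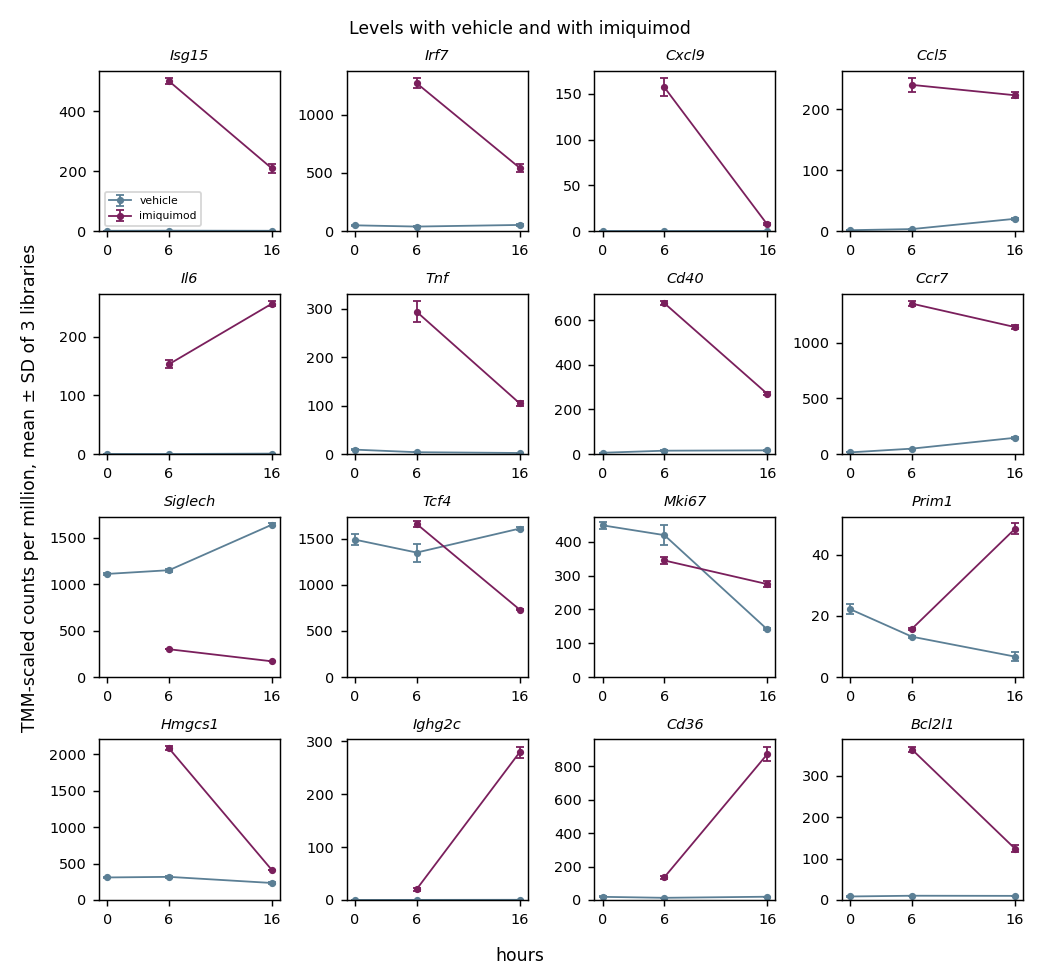
Each panel is a gene, with hours on the horizontal axis and TMM-scaled CPM on the vertical axis from 0, as mean and SD of 3 libraries, with vehicle (sampled at 0, 6 and 16 h) and imiquimod (sampled at 6 and 16 h) as lines. Irf7, Cxcl9, Tnf, Cd40, Hmgcs1 and Bcl2l1 fell toward but not to the vehicle level, Il6, Cd36, Prim1 and Ighg2c rose, and Siglech and Mki67 went opposite ways or at different rates in the 2 conditions.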

How the data were processed

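Genes were measured by RNA-seq, and the deposited table holds raw read counts per gene for the 18 libraries, made by the authors with STAR on mm10 per the submitters' processing notes. Not given in the sources used here were the aligner version, counter, strand setting and annotation. Of the table's identifiers 97.8% matched GENCODE M21, which gave coordinates (GRCm38, the same build as mm10), and promoters were from RefSeq (GRCm38.p6).

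Groups came from the sample labels. One edgeR 4.0.16 quasi-likelihood fit (R 4.3.3, limma 3.58.1) held all 6 groups of 3, with filterByExpr at a minimum count of 10 and TMM scaling. Its common dispersion of 0.000951 corresponds to 3.08% variation between libraries beyond counting error. Calls needed an adjusted p (Benjamini-Hochberg) under 0.05 over all 14876 tested genes, and a second rule also needed a change of at least 2-fold. The same fit tested vehicle at 16 h against 6 h, and the difference between the 2 changes. The standard error (SE) is the log2 fold change over the root of F, CPM are TMM-scaled, and depth ran from 10609741 to 13447018 counts. Intervals for low counts are exact at 95%. The fit was tested on simulated counts with known changes in a small part of the genes, as many up as down. In the data 63.7% of tested genes were called, so the simulation could not test the scaling.

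Members, lists and tests were chosen with earlier results of these data known. Named genes are the 12 largest rises and 12 largest falls (called, mean of at least 10 CPM, no overlap between times, without gene models, clones, pseudogenes, small RNAs, rRNA and mitochondrial genes), up to 3 rises and 3 falls in each list, and a panel of 36 genes; the text gives a part of these 247. Genes described outside this rule were chosen after their values were seen: Batf3, C1qb, Ccl1, Ccr4, Cd28, Cd4, Ch25h, Csf3r, Cxcl1, Cxcr3, Dusp14, Dusp6, E2f8, Ermap, Fasl, Gata3, Gsdme, Hist3h2bb-ps, Ido1, Ifit3, Il2rb, Insig2, Itga2b, Itgam, Jchain, Klrb1c, Klre1, Lif, Mcm7, Mpo, Mrps18a, Ndufb2, Nfkbil1, Nr4a2, Osm, Pola1, Prf1, Prss34, Prtn3, Tnfrsf14 and Tnfsf11. Shared sequence was measured as the percent of a gene's 75 nt windows found in transcripts of another gene. Lists were described by counts and medians, with no set test, and some members are not reported here.

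Alternatives were DESeq2 size factors, library totals, no expression filter, 1 CPM in 3 libraries, a replicate block, no rRNA genes, DESeq2 1.42.0 (Wald test), a fit of the compared groups alone and each library left out. Same-numbered libraries did not deviate together, so the block was not used.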

Additional observations from a re-analysis of the deposited data

Results flagged for a closer look

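Among 56 genes, those with the largest changes and the panel, 14 changed in opposite directions from 6 h to 16 h with imiquimod and with vehicle, each change and the difference being called by edgeR. The difference, imiquimod minus vehicle on the log2 scale, was -4.06 for Il12b, -3.79 for Dntt, -2.71 for Ccl5, -2.57 for Tnfsf10, -1.82 for Ccr7, -1.67 for Irf7 and -1.56 for Ccl3. It was -1.44 for Tcf4, -1.35 for Socs3, -1.33 for Siglech, -1.09 for Tlr7, -0.98 for Tlr9 and -0.81 for Cd274. In these 13 the level fell with imiquimod and rose with vehicle, but under library totals Ccl5 and Cd274 rose with imiquimod (0.19 and 0.18), and Ccr7 (0.05) and Ccl3 (-0.03) were not called. The call of Ccl5 was lost without 6 h replicate 2, 6 h replicate 3 or 16 h replicate 2 (log2 fold changes of -0.08, -0.09 and -0.07). It was also lost without an expression filter (-0.08) and with rRNA genes left out (-0.09). Ldha went the other way, up with imiquimod and down with vehicle, with a difference of 0.96.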

How the results depend on the processing

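Scaling by library totals moved counts by over 1.5 times. With it 7786 genes were higher and 2655 lower at 16 h of imiquimod, 2148 and 731 at least 2-fold, and the difference from vehicle was called in 6951 toward imiquimod and 2257 away from it, 2473 and 771 at least 2-fold. The sign turned for Irf8 (0.14), Ccl5 (0.19), Cd274 (0.18), Ccr7 (0.05), Atp5a1 (0.09), Sdhc (0.08), Uqcrfs1 (0.07) and Mrps18a (0.1). Under the other alternatives no gene named here had a called change of sign.

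Leaving out 1 library gave 4458 to 4687 higher and 4382 to 4567 lower genes with imiquimod (1234 to 1272 and 1170 to 1228 at least 2-fold), 1781 to 2362 and 1896 to 2520 with vehicle (285 to 359 and 323 to 342), and 4065 to 4342 and 3922 to 4175 for the difference (1389 to 1457 and 1283 to 1380).

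Replicate numbers did not pair libraries, with correlations of same-numbered deviations of -0.048, -0.0194 and -0.0225. A replicate block gave 4709 higher and 4708 lower genes with imiquimod, 2116 and 2245 with vehicle, and 4210 and 4188 for the difference, and among named genes it ended 1 call, that of Cxcr3 (0.77, adjusted p = 0.0539).

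Over 236 named genes and 3296 gene-by-alternative values, 3218 kept direction and side of the threshold, 63 lost the call, 7 gained one and 8 turned. Depth limits Ifnb1, Gzmb, Prf1, Fasl, Il10 and Gsdme, which rest on few counts.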
